A study of Drosophila melanogaster with 9 samples.

Results

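The origins described here were regions that the study listed as replication origins in its pooled S2 list and in no other list. They were chosen by width, position and overlap, as the origins of the pooled S2 list that were narrower than 4000 bp, lay on the 4 large autosomal arms 2L, 2R, 3L and 3R, and overlapped no region of the Bg3 list or of the fraction 4, 5 and 6 lists by as much as 1 bp. Arm 2L was used up to 21 Mb and arm 3L up to 22.5 Mb, which leaves out their pericentromeric ends. Nothing was left out in this way on 2R and 3R. Of the 7268 origins in the pooled S2 list, 5444 lay on these arms and 5308 of those were also narrower than 4000 bp and are called eligible here. Among the eligible origins 1766 were in no other list and are called S2-pool-only origins. They made up 33.3% of the eligible origins, which is the background for any count of them below. Absence from a list means that no region was listed there, and does not show that signal was absent. The 5 lists held 32247 regions together.

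Short nascent strands had been sequenced from cultured Drosophila melanogaster cells of 2 lines, for which the labels name no treatment. One is S2-DRSC (S2), derived from late embryos and resembling blood cells, and the other is ML-DmBG3-c2 (Bg3), derived from the central nervous system of larvae. The pooled S2 list and the pooled Bg3 list each joined 2 biological replicates of DNA fragments between 0.5 and 2.5 kb. The single-fraction lists came from S2 cells alone, with 2 libraries for each of fraction 4 (short strands), fraction 5 (middle-sized) and fraction 6 (long). All samples shared the same purification, in which lambda exonuclease digests DNA that carries no RNA primer, in at most 5 rounds. The 9 samples include a merged sample for each pool beside its single replicates, and the labels name 1 list for each pool and each fraction. No list has separate values for replicates or libraries, so no spread between cultures can be given and no test between lists was run.

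DNA replication in animal cells starts at many sites along each chromosome. At each site the origin recognition complex helps to load the replicative helicase, and the first leading strand made there is short and begins with an RNA primer. Drosophila origins share no strict consensus sequence, many more sites are licensed than fire in a given cell, and the set of sites in use can differ between cell types.

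The other lists differed in length, which bears on how often they could hold an S2 origin. On the same arms Bg3 had 5527 regions, fraction 4 had 2844, fraction 5 had 4363 and fraction 6 had 3811. Bg3 missed 59.3% of the eligible S2 origins, fraction 4 missed 68.0%, fraction 5 missed 53.4% and fraction 6 missed 61.9%. The S2-pool-only origins were those that all 4 missed. They were the most frequent of the 16 possible patterns of presence. Origins in every list numbered 720. Those in Bg3 but in no fraction numbered 697, and those in at least 1 fraction but not in Bg3 numbered 1382. Had the Bg3 list not been used, the 697 would have been added, whereas leaving out fraction 4, 5 or 6 would have added 75, 211 or 108. Leaving out the fractions together would have added the 1382, since many of these were in more than 1 fraction.

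S2-pool-only origins occurred on every arm in similar proportion, with the lowest share on 2R. They were 457 of 1293 eligible origins on 2L (35.3%, 95% interval 32.7 to 38.0), 396 of 1152 on 3L (34.4%, 31.6 to 37.2) and 544 of 1582 on 3R (34.4%, 32.0 to 36.8). On 2R they were 369 of 1281 (28.8%, 26.3 to 31.4), and the 2R interval lay below those of the other arms. These are exact binomial intervals and treat origins as independent draws, although neighbouring origins were alike, as shown further on. Pericentromeric ends were left out on 2L and 3L only, so the arms were not cut alike.

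The limits of the rule had these origins on either side. The S2-pool-only origins closest to another list lay 1, 2 and 3 bp from it, and the eligible origins with the smallest overlap shared 2, 3 and 6 bp with a region of 1 other list. Of the 3542 eligible origins that were shared, 19 had no list covering more than 10% of their width and 481 had none covering more than 50%. The widest S2-pool-only origin measured 3128 bp. Of the 136 origins of 4000 bp or more on these arms, 1 was in no other list, on 3L from 16051530 to 16056049, with 1832 reads per kb. The last S2-pool-only origin on 2L started at 20962121 and the first beyond the limit at 21028005. On 3L these starts were 22428540 and 22500689. All coordinates are those of the deposited dm3 lists.

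Origins found only in the S2 pool were narrow. Their median width was 462 bp (95% order-statistic interval 449 to 475), and the middle 50% of them lay between 354 and 624 bp. Over all eligible origins the median was 591 bp (579 to 602). Origins of Bg3 and no fraction had a median of 554 bp (527 to 586), those of S2 fractions without Bg3 had 637 bp (620 to 656), and those of all lists had 848.5 bp (810 to 909). The S2-pool-only median was 0.834, 0.725 and 0.544 times those 3 medians. A narrow region has less chance of touching another region, so width is partly fixed by the rule.

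They were also weak. Strength here means the deposited efficiency. It counts reads for each kb of origin width, because strength times width gave a whole number of reads for each S2 origin. The median S2-pool-only origin had 1411 reads per kb (1397 to 1420), the lower quartile was 1289 and the upper quartile 1556. Over all eligible origins the median was 1533 (1522 to 1545). Origins in Bg3 but no fraction had 1462 (1441 to 1483), origins in fractions but not Bg3 had 1644 (1615 to 1672), and origins in all lists had 1970 (1931 to 2025). The S2-pool-only median was thus 0.965, 0.858 and 0.716 times those values. The same order held on each of the 4 arms, where the S2-pool-only median was 1409 on 2L, 1370 on 2R, 1432 on 3L and 1418 on 3R. The median number of reads in an S2-pool-only origin was 652.5 (629 to 672), against 914.5 over all eligible origins. Together the S2-pool-only origins held 1415012 reads, which is 18.1% of the reads in eligible origins for 33.3% of their number. Strength and width come from the list that defined the members, so these values describe the origins and were not tested.

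**Figure D1:**
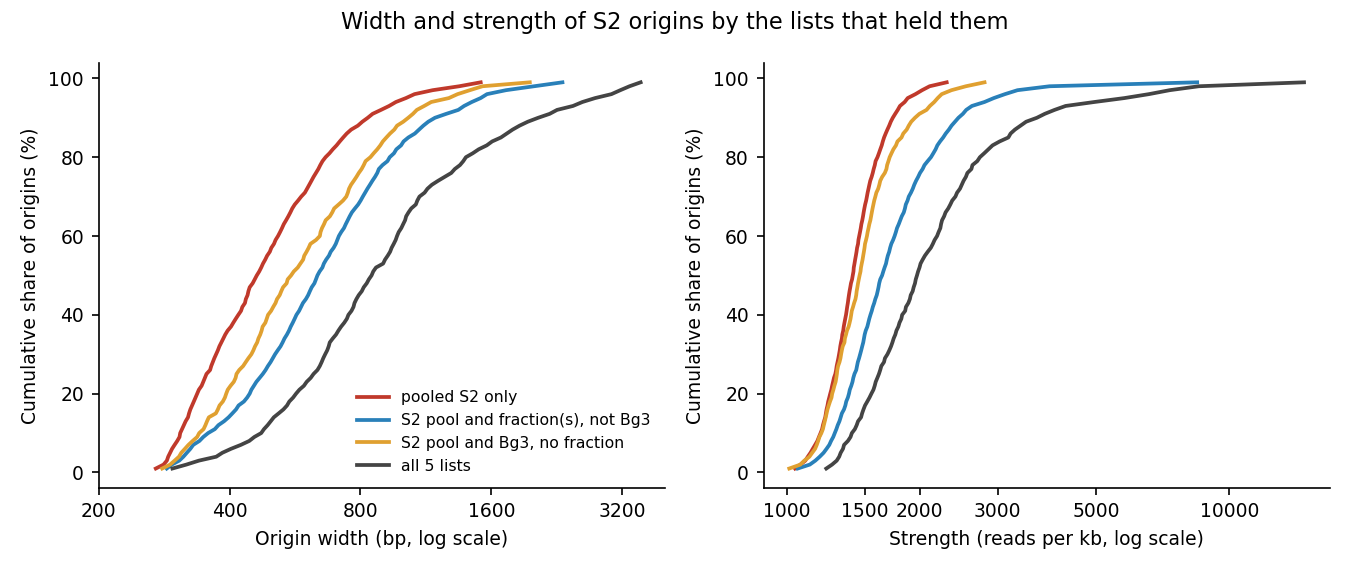
Cumulative share of origins (%) against width (bp, log scale, left) and strength (reads per kb, log scale, right), drawn from the 1st to the 99th percentile for each class of eligible S2 origin. The curve of origins found only in the pooled S2 list (1766 origins) lies furthest to the left in width, with a median of 462 bp. In strength its lower part runs close to the curve of origins shared with Bg3 but with no fraction. The upper parts separate, with 1738 against 1950 reads per kb at the 90th percentile.

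Their strengths covered a narrower range than those of all eligible origins. Between the 10th and the 90th percentile strength ran from 1194 to 1738 reads per kb, where over all eligible origins it ran from 1235 to 2389. Few strong origins were in the pool alone. Of the 1003 eligible origins above 2000 reads per kb, 57 were S2-pool-only (5.68%, 4.33 to 7.30), and of the 261 above 3000 reads per kb, 2 were (0.766%, 0.0929 to 2.74). Width and strength rose together within the set, with a Spearman correlation of 0.397 over the 1766 origins and 0.577 over the 5308 eligible ones. The 2 quantities share the same region boundaries, and origins are not independent replicates.

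The share of S2-pool-only origins was highest among narrow and weak origins. The eligible origins were cut into 5 classes of nearly equal number by width and, separately, by strength. In the narrowest class, 181 to 393 bp, 58.7% of the origins were S2-pool-only (55.7 to 61.7), and in the widest, 925 to 3996 bp, 12.1% were (10.2 to 14.2). In the weakest class, up to 1320 reads per kb, 52.0% were S2-pool-only (48.9 to 55.0), and in the strongest, from 1972 reads per kb, 6.12% were (4.76 to 7.73). Combining both, the share was 65.4% among 459 origins that were narrowest and weakest and 3.49% among 545 that were widest and strongest. In all 5 width classes the share was lower at the highest strength than at the lowest, and in all 5 strength classes it was lower at the greatest width than at the smallest. Between these ends the shares were not always in order, as in the second width class with 44.5%, 51.5% and 42.6% from the weakest class upwards. Of the 22 origins that were narrowest and strongest, 9 were S2-pool-only (40.9%).

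**Figure D2:**
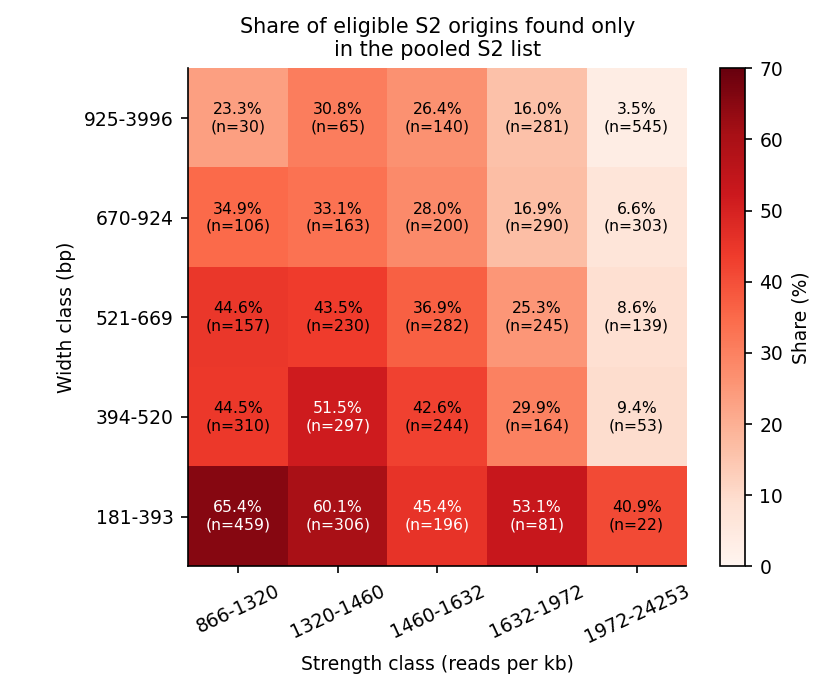
Share of eligible S2 origins that were in no other list (%), by width class (bp, vertical) and strength class (reads per kb, horizontal), with the number of origins in each cell. The share falls from 65.4% in the lower left cell to 3.49% in the upper right cell.

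At a like width, origins found only in the S2 pool had nearly the same median strength as origins shared with Bg3 but with no fraction. From the narrowest to the widest class the ratio of the S2-pool-only median to theirs was 0.999, 1.02, 0.997, 0.977 and 0.947. The corresponding ratios to origins in fractions but not in Bg3 were 0.938, 0.941, 0.908, 0.858 and 0.808. In the middle class, 521 to 669 bp, the medians were 1469 reads per kb for S2-pool-only origins (1441 to 1500), 1473 for those in Bg3 and no fraction (1445 to 1512), and 1619 for those in fractions without Bg3 (1565 to 1664). The S2-pool-only interval overlapped that of origins in Bg3 and no fraction in all 5 width classes, and that of origins in fractions without Bg3 in 0 of 5. Overlapping intervals do not show that the strengths are equal.

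**Figure D3:**
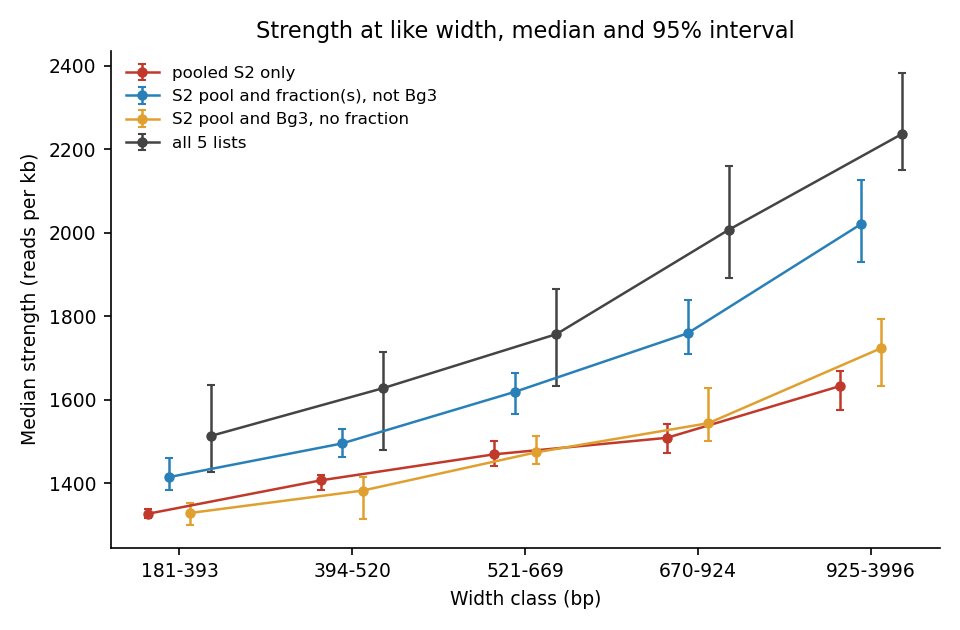
Median strength (reads per kb) with its 95% order-statistic interval in 5 width classes (bp), for each class of eligible S2 origin. S2-pool-only origins and those in Bg3 but no fraction overlap in each width class, while origins with fraction support lie higher, for example at 1619 against 1469 reads per kb at 521 to 669 bp. The vertical axis does not start at 0.

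The number of fractions that held an origin ordered the strengths further. Without Bg3, the median strength was 1411 reads per kb in 0 fractions, 1494 in 1 (1473 to 1521), 1583 in 2 (1553 to 1619) and 1902 in 3 (1852 to 1956). With Bg3 the values were 1462, 1611, 1723 and 1970. The S2-pool-only set was the lowest of these 8 groups. Its medians on single arms, 1370 to 1432, lay below every single-arm median of the other groups, the lowest of which was 1461. Median width ran the same way, from 462 bp for S2-pool-only origins to 742 bp for origins of 3 fractions without Bg3.

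Single S2-pool-only origins show the range. The strongest lay on 3R from 4730831 to 4732201, with 12501 reads (exact Poisson interval 12283 to 12722, which covers counting error only) and 9118 reads per kb, 6.46 times the S2-pool-only median. It began 212 bp beyond the edge of a 6731 bp origin from 4723889 to 4730619 that had 185295 reads per kb and was in all lists. It also lay 204 bp from a fraction 4 region. The next 4 were far weaker. An origin on 2R from 14657408 to 14657766 had 3142 reads per kb, and its nearest S2 neighbour, 204 bp away, was shared with Bg3. On 3R the origin from 9870208 to 9870703 had 2629 reads per kb and stood 18 bp from another S2-pool-only origin, and the one from 12250682 to 12251709 had 2490 and lay 4964 bp from the nearest region of another list. The last of these 5, on 2R from 8919187 to 8919672, had 2473 reads per kb and lay 89 bp from a Bg3 region and 20 bp from an S2 origin with fraction support.

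The origins with the most reads after the 3R site were wide. One on 3L from 560230 to 563357 held 5587 reads over 3128 bp, at 1786 reads per kb, and lay 39 bp from a fraction 4 region. Another on 2R from 2157177 to 2159320 held 4937 reads over 2144 bp and lay 1127 bp from a 7211 bp origin of all lists. The next widest, on 3L from 3362529 to 3365377 and on 3R from 25658666 to 25660925, measured 2849 and 2260 bp and had 1485 and 1452 reads per kb, close to the S2-pool-only median. At the other end, the narrowest lay on 2L from 6583220 to 6583409 and from 13627014 to 13627224 and on 3L from 15250736 to 15250960. They measured 190, 211 and 225 bp and held 320, 240 and 267 reads. The lowest count, 240, has an exact Poisson interval of 211 to 272, so counting error alone spans more than 10% either way there.

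Origins in the middle of the strength range differed in width and in distance from other lists. On 2L the origin of median strength ran from 8436098 to 8436720, held 878 reads (821 to 938) and lay 3712 bp from the nearest region of another list, with the next above it from 7593005 to 7593459 at 642 reads. On 2R the median origin ran from 10141685 to 10142089, held 555 reads and lay 9977 bp from another list, and the next above it, from 4649548 to 4649917, held 508 reads. The middle pair on 3L, from 16880956 to 16881650 and from 10760454 to 10760873, held 994 and 602 reads. The first of them had another S2-pool-only origin 18 bp away, and the second lay 140 bp from a fraction 5 region. The middle pair on 3R, from 2272121 to 2272486 and from 24928126 to 24929144, had the same strength of 1418 reads per kb at widths of 366 and 1019 bp and held 519 and 1445 reads. They lay 10716 and 397 bp from another list.

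Most S2-pool-only origins lay more than 1 kb from every region of the other lists. The median distance from edge to edge to the nearest region of any other list was 4166.5 bp (3834 to 4474), with a lower quartile of 1303 bp and an upper quartile of 8600 bp. Within 1 kb lay 369 of the 1766 (20.9%, 19.02 to 22.9), within 5 kb lay 994 (56.3%) and within 10 kb lay 1402 (79.4%). The shares within 1 kb were 21.0%, 23.8%, 22.0% and 18.0% on 2L, 2R, 3L and 3R. By list, the median distance was 7259.5 bp to Bg3 (6754 to 7721), 13716.5 bp to fraction 4 (12667 to 14547), 8663 bp to fraction 5 (8207 to 9253) and 9934 bp to fraction 6 (9217 to 10924), which follows the order of the list lengths. Origins in fractions but not in Bg3 lay a median of 6497 bp from the nearest Bg3 region (5921 to 7014). The S2-pool-only median was the larger on each of the 4 arms, but the intervals of the pooled medians overlapped.

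**Figure D4:**
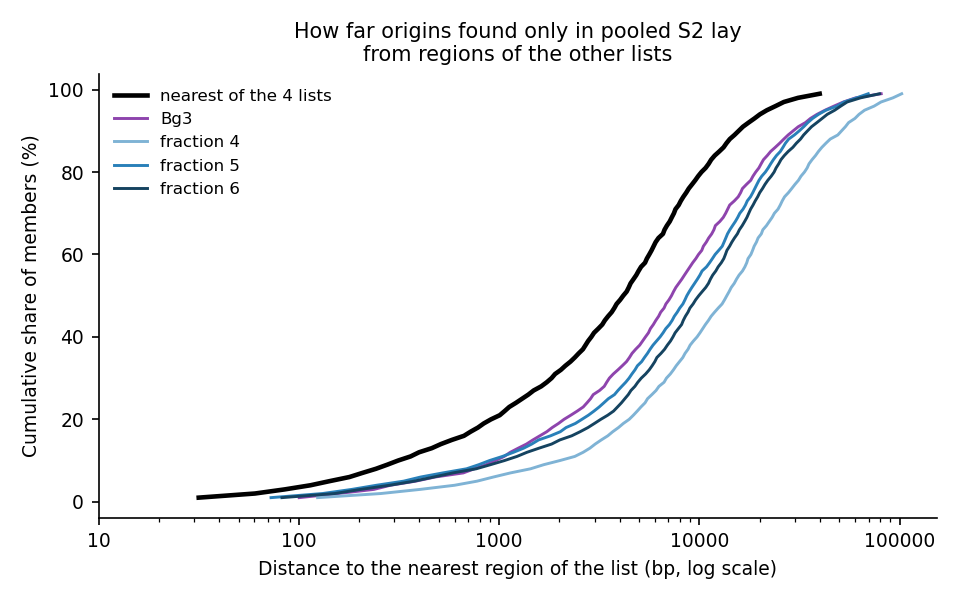
Cumulative share of S2-pool-only origins (%) against the distance to the nearest region of each other list (bp, log scale), drawn from the 1st to the 99th percentile. The curve for the nearest of the 4 lists reaches 20.9% at 1000 bp and 79.4% at 10000 bp, and the curve for fraction 4, the shortest list, lies furthest to the right.

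Of the 369 S2-pool-only origins within 1 kb of another list, 110 were within 1 kb of Bg3 alone, 184 of fractions alone and 75 of both, and 28 had all 4 lists within 1 kb. A further S2 origin lay within 1 kb of 208 of the 369 (56.4%), and for 186 of these that neighbour was itself found in another list. Among the 1397 S2-pool-only origins beyond 1 kb, 203 had an S2 origin within 1 kb (14.5%), and for 9 of these it was found in another list. A shared S2 origin overlaps a region of another list, so one within 1 kb nearly always places its neighbour in the near group, and this contrast is largely set by the split at 1 kb. The share of eligible origins with an S2 origin within 1 kb was 21.6%. Near origins had a median of 476 bp (452 to 502) and 1442 reads per kb (1418 to 1471), and far ones 458 bp (444 to 472) and 1398 reads per kb (1385 to 1414). The strength intervals of near and far origins did not overlap, and the width intervals did.

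The nearest cases show what lay beside them. On 3L the origin from 7450710 to 7451040 began 1 bp from a fraction 5 region, and the one from 4550856 to 4551204 lay 2 bp from a fraction 6 region and 11 bp from an origin of all lists that ran on to 4553005. On 3R the origin from 6259940 to 6260379 lay 3 bp from a Bg3 region. All 3 had under 1250 reads per kb, at 1242, 1221 and 1186.

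The S2-pool-only origins farthest from other lists stood in stretches without regions of those lists, though S2 origins could be nearer. One on 3L from 18404137 to 18404741, with 756 reads (703 to 812) and 1250 reads per kb, lay 80698 bp from the nearest region of any other list and 171060 bp from the nearest S2 origin. Another on 3L from 13725848 to 13726388, with 785 reads, lay 68359 bp from other lists, and its nearest S2 origin, 10025 bp away from 13736413 to 13737166, was S2-pool-only as well, with 1968 reads per kb. The next, on 2L from 10672262 to 10672593, had 500 reads and lay 61615 bp from other lists. It was part of the longest run described next.

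S2-pool-only origins tended to lie next to one another, and each comparison class did so with its own kind as well. The nearest S2 origin of an S2-pool-only origin was also in no other list in 722 of 1766 cases (40.9%, 38.6 to 43.2), where the share over all eligible origins was 33.7%. The value was 32.1% (29.6 to 34.6) for origins in fractions without Bg3, 30.4% (27.0 to 34.0) for those in Bg3 without fractions and 27.1% (23.9 to 30.5) for those in all lists. The S2-pool-only value was the highest of these on each arm, at 41.1% on 2L, 36.6% on 2R, 39.1% on 3L and 44.9% on 3R. On 3L the value for origins in Bg3 without fractions, 38.0%, was close behind. Origins in fractions without Bg3 had a neighbour of their own class in 32.5% of cases, against 26.3% over all eligible origins. For origins in Bg3 without fractions these shares were 15.2% and 12.4%, and for those in all lists 19.2% and 14.3%. Lying beside the own class was thus not particular to S2-pool-only origins. A pair of mutual neighbours is counted from both sides in these shares.

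Crowding was close to that of all eligible origins. Another S2 origin lay within 5 kb of 50.3% of them (47.9 to 52.6), and the share was 51.1% over all eligible origins. Their median distance to the next S2 origin was 4973 bp (4590 to 5375), against 4817 bp (4620 to 5029). Regions of the other lists were on average somewhat sparser around them. Between 5 and 50 kb from the centre, on both sides, there were on average 5.20 Bg3 regions, against 5.93 around all eligible origins and 6.68 around those in Bg3 without fractions. Around origins in fractions but not in Bg3 the average was 5.50, also below that of all eligible origins. That average was below the S2-pool-only one on 2L, at 4.83 against 4.98, and above it on 2R, 3L and 3R. The median count was 5 around S2-pool-only origins, around origins in fractions without Bg3 and around all eligible origins. The Bg3 averages around S2-pool-only origins were below those around all eligible origins on each arm, from 4.48 against 5.01 on 3R to 5.92 against 6.85 on 2R. For fraction 4 the average was 2.97 against 3.23, but on 2L it was the higher around S2-pool-only origins, at 3.55 against 3.52. For fraction 5 the averages were 4.55 and 4.85, and for fraction 6 they were 4.01 and 4.28. Around origins in Bg3 without fractions the averages for fractions 4, 5 and 6 were 2.90, 4.45 and 3.97. On 2R each of these was higher than around S2-pool-only origins, and on 2L each was lower. For the S2 list itself the averages around S2-pool-only and all eligible origins were 5.69 and 5.94. Fewer Bg3 regions in a stretch also leave more S2 origins without a Bg3 partner, so these averages are tied to the rule.

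Consecutive S2-pool-only origins, with no shared eligible origin between them, formed runs. A run of 1 held 649 of them (36.7%), and 546 stood in runs of 2. Runs also arise when origins at a share of 33.3% are placed without order, and the run lengths were not compared with that. The longest run had 8, on 2L from 10628745 to 10848450, a stretch of 220 kb with 4 Bg3 regions and 2 or 3 regions of each fraction. The longest on 3R had 7, from 11879822 to 11955726, with 5 Bg3 regions, 2 each of fractions 4 and 5 and 0 of fraction 6 in between. The longest run on 3L had 6, from 4763945 to 4889966, where Bg3 had 4 regions and the fractions had 0. On 2R the longest had 5, from 5661513 to 5753850, with 6 Bg3 regions and 1, 4 and 5 regions of fractions 4, 5 and 6. On 2R, 3L and 3R other runs were equally long (3, 2 and 2 runs of that length). Strengths inside these 4 runs stayed between 1045 and 1995 reads per kb.

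The share of S2-pool-only origins varied along the arms. In 181 windows of 500 kb with at least 10 eligible origins the median share was 33.3% (32.0 to 36.7), with quartiles of 25.9% and 40.9%. The binomial interval of the window excluded the overall share in 19 of the 181 windows, 13 below it and 6 above it. The highest shares were all on 3L, with 11 of 17 from 4.5 to 5 Mb (64.7%, 38.3 to 85.8), 13 of 21 from 6.5 to 7 Mb (61.9%, 38.4 to 81.9) and 8 of 14 from 18 to 18.5 Mb (57.1%, 28.9 to 82.3). The lowest were 1 of 24 on 3R from 19.5 to 20 Mb (4.17%, 0.105 to 21.1), 1 of 22 on 3L from 7.5 to 8 Mb (4.55%, 0.115 to 22.8) and 2 of 28 on 2R from 6.5 to 7 Mb (7.14%, 0.877 to 23.5). At 100 kb, the most S2-pool-only origins in a window were 9, of 21 eligible on 3L from 10.7 to 10.8 Mb and of 11 on 3R from 11.5 to 11.6 Mb.

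The windows with the highest shares had fewer Bg3 regions than those with the lowest, with 16, 20 and 12 against 49, 26 and 39. They also had fewer origins of the S2 list itself, with 18, 21 and 14 against 25, 23 and 30. Fraction 5 counts were separated in the same way, with 9, 17 and 9 against 25, 20 and 29. Fraction 6 counts were as well, with 6, 14 and 11 against 17, 20 and 27. Those of fraction 4 overlapped, with 3, 13 and 3 against 15, 12 and 21. Across the 181 windows the share had a Pearson correlation of -0.52 (Spearman -0.48) with the number of Bg3 regions, -0.31 (-0.26) with fraction 4, -0.35 (-0.31) with fraction 5 and -0.35 (-0.32) with fraction 6. With the number of S2 origins it was -0.19 (-0.17). The rule ties the share to the other lists, and windows share sequence content and library, so these correlations are descriptions.

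With each arm cut into 5 parts of equal length in the order of the coordinates, the first part had the lowest pooled share, 27.1% (24.5 to 29.7), and the others had 33.2%, 35.5%, 35.7% and 35.9%. The first part had 23.0% on 2R and 21.0% on 3L, against 33.0% on 2L and 31.7% on 3R, so arms differed in it. Parts were ordered by coordinate alone and not by distance from the centromere, so the pooled shares are no single trend along an arm. On 2L and 3L the high coordinates lead to the pericentromeric ends, which were left out, while 2R and 3R were used over their full length. From 0 to 1.5 Mb on 2R, successive windows of 500 kb had shares of 10.9%, 22.9% and 16.1%, with 87, 68 and 50 Bg3 regions. From 0 to 1 Mb on 3R they had 44.4% and 39.5%, with 31 and 46 Bg3 regions. On 3L the middle part reached 42.3%.

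**Figure D5:**
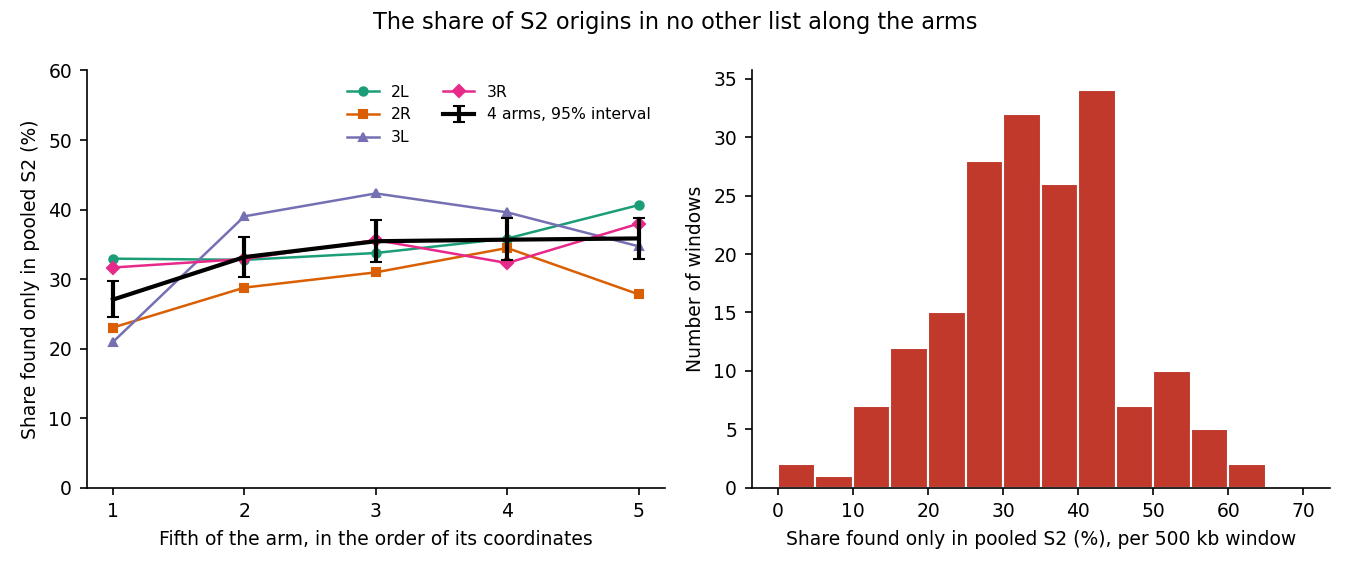
Left, share of eligible S2 origins in no other list (%) in each of 5 parts of the 4 arms, with the pooled share and its 95% exact binomial interval in black. Right, number of 500 kb windows by that share (%), which ran from 4.17% to 64.7% with a median of 33.3%.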

How the data were processed

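The deposited origin lists were used as they are. Per the submitters' processing notes, Bowtie2 2.2.0, SAMtools 0.1.19 and MACS 1.4.1 were used with genome build dm3. The sources used here do not give their settings or how replicates were combined. Other deposited columns are coordinates and widths. The deposited efficiency is a signal in reads per kb, as its values showed: multiplied by width, 100% of S2 values came out whole (within 0.001), for 42145362 reads in all. The depth of each library and of the fractions is unknown.

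Overlaps, distances, exact binomial intervals for shares and order-statistic intervals for medians (95%) were computed in Python 3.11.15 with pandas 2.3.3, numpy 2.4.6 and scipy 1.17.1, and the overlap code was tested on simulated regions. A distance of 1 bp means adjoining bases. Starts are printed as deposited, and whether they count from 0 or 1 is unsettled (the smallest is 0). Named regions followed a rule (strongest 5, most reads 3, widest 3, narrowest 3, farthest 3, nearest 3, middle 2 per arm, the 3 highest and 3 lowest windows, the longest run per arm, and the origins at the rule's limits). The members, classes and lists were chosen with earlier results of these data known. Alternatives covered the overlap rule, width limit, arms, strength, windows and distances. Sequence and gene features were not analysed here.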

Additional observations from a re-analysis of the deposited data

Results flagged for a closer look

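Pooled S2 origins under 4000 bp that were in no other list also occurred outside the arms described above. On the X they were 214 of 589 (36.3%, 95% exact binomial interval 32.4 to 40.4). On the ends of 2L and 3L they were 80 of 321 (24.9%, 20.3 to 30.03), on chromosome 4 they were 5 of 38 (13.2%, 4.41 to 28.1) and on the heterochromatic scaffolds 85 of 753 (11.3%, 9.12 to 13.8). Their median strengths, 1405, 1427, 1420 and 1461 reads per kb in that order, lay beside the 1411 of the 4 arms. Their median widths were 389.5, 645.5, 544 and 630 bp, so those on the X were narrower than the 462 bp of the 4 arms and the others were wider, with the ends and the scaffolds above the 591 bp of all eligible origins. The differences between these places were not tested.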

How the results depend on the processing

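Each list is a single pooled set, so intervals cover counting over origins only. No paired analysis was possible because the lists hold no column for each replicate and no result comes from a test. The planned sequence and annotation alternatives were not run, since no dm3 genome was used here. Of 13 settings for the share of S2-pool-only origins (33.3%), 6 stayed within its interval, as did 9 of 11 for width (462 bp), 9 of 13 for strength (1411 reads per kb), 7 of 11 for the share within 1 kb of another list (20.9%), 8 of 14 for the share with an S2 origin within 5 kb (50.3%) and 9 of 13 for the median window share (33.3%). These counts include settings that change the measure itself, such as reads per origin or another distance. They therefore do not measure how stable a result was. Counting an origin as shared only with 50% of it covered gave 42.3%, 507 bp, 1437 reads per kb, 37.8% within 1 kb and a window share of 44.4%. Counting a region within 500 bp as shared gave 28.6%, 8.03% within 1 kb, 46.4% with an S2 neighbour and a window share of 28.6%. With 1000 bp the values were 26.3%, 0% by construction, 44.2% and 26.7%. In the stronger 50% of eligible origins they were 18.5%, 597.5 bp, 1678 reads per kb, 24.7%, 54.9% and 16.7%. Without arm 2R the share was 34.7%. Absence from the fractions alone gave 46.4% and from Bg3 alone 59.3%. Strength as whole reads was 652.5 reads per origin, and as a mean 1450 reads per kb. An S2 neighbour was found for 31.1% within 2 kb, for 72.5% within 10 kb and, after merging S2 origins within 1 kb, for 34.6% within 5 kb. Under the 11 alternative settings of overlap, width, arms and strength, S2-pool-only origins stayed narrower (0.672 to 0.773 times) and weaker (0.845 to 0.870 times) than the shared eligible origins by their medians, as reported (0.688 and 0.856).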
